A study of Mus musculus with 6 samples.

Results

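Integrins and laminins were followed in mouse mesenchymal stem cells, bought from a supplier and kept in an adipogenic medium. The genes were those whose single symbol in the platform annotation matched Itga, Itgb with 1 digit, or a laminin alpha, beta or gamma chain (Lama, Lamb, Lamc). This gave 34 of 18193 genes, 24 integrin subunits and 10 laminin chains, covered by 73 probe sets. Irradiated cultures were exposed for 12 h to pulsed terahertz radiation, centred near 10 THz in 35 fs pulses at a repetition rate of 1 kHz, averaging 1 mW/cm2. Control cultures stood beside them without irradiation. Both groups had received rosiglitazone (1 µM), insulin (5 µg/ml), the phosphodiesterase inhibitor IBMX (100 µM) and dexamethasone (1 µM), added again 48 h before irradiation, and the temperature was 26 to 27 °C for both. An irradiated and a control array came from each of 3 independent experiments, which makes 3 pairs and 6 arrays. The unit throughout is the deposited log2 value of a probe set. Precision is limited by the number of arrays. A gene is represented by its brightest probe set, and levels of different genes are not set against each other, since each probe set has its own response.

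Integrins are receptors made of 1 alpha and 1 beta subunit that tie the matrix outside a cell to its actin skeleton and signal in both directions across the membrane. Laminins are trimers of an alpha, a beta and a gamma chain that build basement membranes, including the one that surrounds each fat cell. In stromal cells most integrins share the beta 1 subunit or the alpha v subunit, while the beta 2 integrins belong to leukocytes. Precursors of fat cells are known to exchange fibronectin receptors for laminin receptors as they differentiate, with alpha 6 taking over from alpha 5.

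Promoter windows are shown for 3 genes. Itga8 and Itgb8 were among the 3 genes with the smallest unadjusted p, and Itgam stands for the leukocyte integrins as a contrast. Each window runs from 250 bases before to 50 bases after the RefSeq start in GRCm38.p6, 5′ to 3′ on the strand of the gene. Windows lie at chr2:12301895-12302194 on the minus strand for Itga8, at chr12:119238227-119238526 on the minus strand for Itgb8 and at chr7:128062390-128062689 on the plus strand for Itgam. Capitals mark matches on either strand to GAGGAA, the core bound by the myeloid factor PU.1, to the GC box GGGCGG, to the AP-1 element TGANTCA, to the cAMP response element TGACGTCA or to the TATA box TATAAA. RefSeq windows were present in the table used here for 22 of the 34 genes.
Itga8: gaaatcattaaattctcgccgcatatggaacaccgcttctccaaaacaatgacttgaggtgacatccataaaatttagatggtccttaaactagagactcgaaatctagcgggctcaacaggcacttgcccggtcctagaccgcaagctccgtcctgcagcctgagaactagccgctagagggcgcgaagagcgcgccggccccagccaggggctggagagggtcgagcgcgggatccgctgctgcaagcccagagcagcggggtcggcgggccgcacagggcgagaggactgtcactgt
Itgb8: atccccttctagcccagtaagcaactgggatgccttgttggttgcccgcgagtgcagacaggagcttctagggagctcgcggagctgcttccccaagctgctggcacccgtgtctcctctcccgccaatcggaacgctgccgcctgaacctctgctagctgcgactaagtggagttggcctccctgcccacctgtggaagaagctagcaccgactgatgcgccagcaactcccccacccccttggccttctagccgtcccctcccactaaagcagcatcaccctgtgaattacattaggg
Itgam: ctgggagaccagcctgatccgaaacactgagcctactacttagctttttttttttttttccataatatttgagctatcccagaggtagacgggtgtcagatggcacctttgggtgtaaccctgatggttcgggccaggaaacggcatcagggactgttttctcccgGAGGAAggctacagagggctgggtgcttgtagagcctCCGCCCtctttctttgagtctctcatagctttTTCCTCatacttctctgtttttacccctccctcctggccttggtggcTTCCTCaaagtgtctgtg
The Itgam window held 3 matches to GAGGAA and 1 to GGGCGG, and no 2 of them overlapped. These letters occurred in 28.3% and 35.7% of 32851 RefSeq windows of the same length. None of the 5 motifs was found in the Itga8 and Itgb8 windows. TGANTCA, TGACGTCA and TATAAA occurred in 7.81%, 1.79% and 13.6% of windows. The windows' G and C content was 59%, 60.7% and 50.3% in the order printed.

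A group mean of 6 or more on the log2 scale was taken as a working level, which 17 of the 34 genes reached: 8 of 16 stromal integrins, 3 of 6 leukocyte integrins, the platelet subunit Itga2b and 5 of 10 laminins. Of these, 16 reached it in both irradiated and control cells, and 1, Itga5, in irradiated cells. Here stromal integrin means a subunit not restricted to leukocytes or platelets, so the set also holds Itgb4 and Itgb6, known mostly from epithelia. No member passed Benjamini-Hochberg adjustment over all 45037 probe sets in the limma fit blocked by experiment, where adjusted p of members ran from 0.53 to 0.987. By this rule 0% of all genes passed. At an unadjusted p under 0.05 there were 3 members, Itgb8, Itga8 and Itga6, all stromal integrins (18.8% of 16) and higher in irradiated cells. That is 8.82% of the members, and 8.31% of all genes reached that p (3.7% higher and 4.61% lower), so the share of members was near the background. Without the replicate block the count was 0, and without experiment 1 it was 1, Itgb8.

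**Figure D1:**
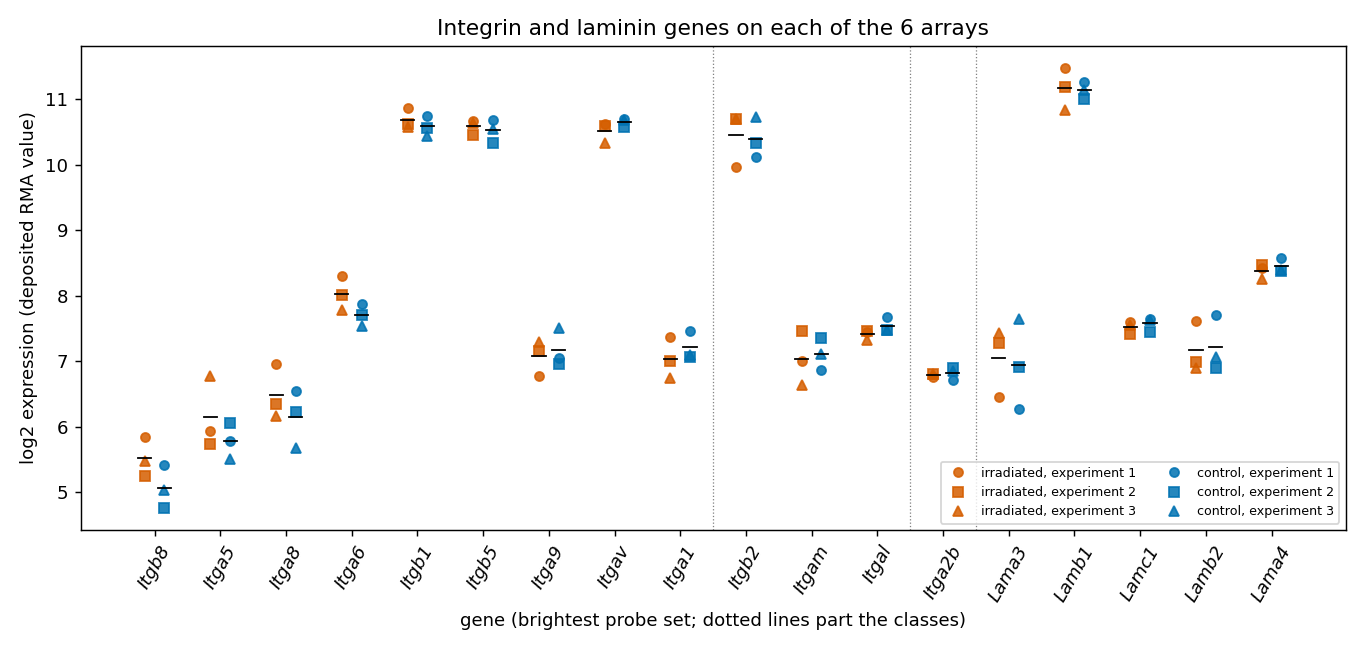
Log2 expression (y axis) of the 17 genes at a mean of 6 or more in 1 group and of Itgb8, on each of the 6 arrays; symbols mark the experiment, black bars the group means, with irradiated arrays left of control arrays. The groups overlap for every gene plotted except Itgal, whose 3 irradiated values lie below the 3 control values.

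The arrays also carried transcripts of other cells, which bears on the leukocyte integrins. All 13 measured markers of leukocytes and macrophages were above the level of 6, among them Csf1r, the receptor for macrophage growth factor, with a mean of 12.92 in irradiated and 13.03 in control cells. Stromal markers were above it for 10 of 11 genes and fat cell markers for 6 of 6. None of the 8 lymphocyte, 8 endothelial and 6 Schwann cell and muscle markers reached it. Of 8 epithelial markers 1 reached it, Epcam, and of 5 platelet markers 1, Pf4. Array medians lay between 4.74 and 4.80, and arrays correlated at 0.9889 to 0.9959 across probe sets. In such mixed RNA, fewer cells of a type and less RNA per cell cannot be told apart.

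Among the laminin-binding integrins, Itga6 alone reached an unadjusted p under 0.05. It encodes the alpha 6 subunit, which pairs with beta 1 in most cells and with beta 4 in epithelia. Its values were 8.30, 8.01 and 7.79 on the irradiated arrays of experiments 1 to 3, against 7.88, 7.70 and 7.54 on the control arrays. Every irradiated array was above its own control, although the groups overlapped. The log2 difference was 0.33 ± 0.10 (SE), a 1.25-fold higher value (limma unadjusted p = 0.0132, adjusted p = 0.558). A dimmer Itga6 probe set, with group means of 7.14 in irradiated and 7.07 in control cells, differed by 0.07 ± 0.10 (SE), so the probe sets disagreed in size. The Itga6 difference missed an unadjusted p under 0.05 without experiment 1, at 0.28, and without experiment 2, at 0.34. The other laminin-binding alpha subunits, Itga3 and Itga7, were below the level of 6, with differences of -0.03 and -0.11 by their brightest probe sets. Further Itga3 probe sets, also below 6, differed the other way, by 0.13 ± 0.11 (SE) and 0.22 ± 0.10 (SE), so no direction is given for Itga3. The epithelial partner Itgb4 was dim as well, at means of 4.84 in irradiated and 4.65 in control cells.

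Itgb8 had the smallest p of the 34 genes. It encodes beta 8, which pairs with alpha v alone and binds latent TGF-beta so that the growth factor can act. Its values were 5.85, 5.24 and 5.47 on the irradiated arrays and 5.42, 4.76 and 5.03 on the control arrays. The 3 pairs differed by 0.43, 0.48 and 0.44, nearly the same step each time, while the groups overlapped because the experiments lay apart. The log2 difference was 0.45 ± 0.09 (SE), or 1.37-fold (limma unadjusted p = 0.00232, adjusted p = 0.53). Both means, 5.52 in irradiated and 5.07 in control cells, were below the level of 6, and the gene has 1 probe set here. Leaving out 1 experiment gave 0.44 to 0.46, each at an unadjusted p under 0.05. Without the replicate block the unadjusted limma p was 0.0578.

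Itga8 encodes alpha 8, which pairs with beta 1 and binds nephronectin, fibronectin and latent TGF-beta through the RGD peptide, and is known from smooth muscle and pericytes. It read 6.95, 6.35 and 6.17 on the irradiated arrays, against 6.55, 6.22 and 5.68 on the control arrays. The step was 0.40, 0.13 and 0.49 in the 3 experiments, so experiment 2 differed least. Over the pairs the log2 difference was 0.34 ± 0.11 (SE), or 1.27-fold (limma unadjusted p = 0.0195, adjusted p = 0.569). It missed an unadjusted p under 0.05 without experiment 1, at 0.31, without experiment 3, at 0.27, and with the experiment as a random block. Its other probe set was dim, at means of 3.32 in irradiated and 3.30 in control cells.

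**Figure D2:**
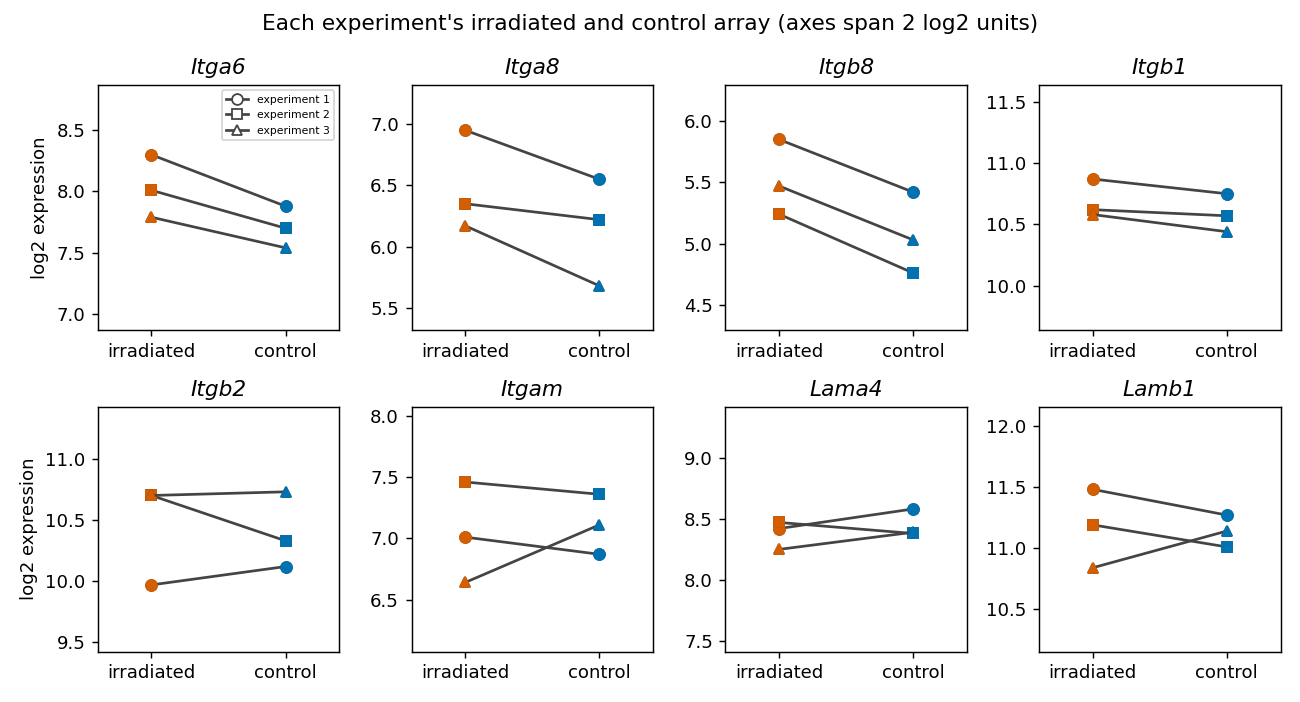
Log2 expression (y axis, 2 units in every panel) of 8 genes, with a line from the irradiated array (left) to the control array (right) of each experiment. All 3 lines fall from left to right for Itga6, Itga8, Itgb8 and Itgb1, and they cross or diverge for Itgb2, Itgam, Lama4 and Lamb1.

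By their brightest probe sets, the partner subunits Itgb1 and Itgav did not reach an unadjusted p under 0.05. Itgb1, the beta 1 subunit shared by many alpha subunits, read 10.87, 10.62 and 10.58 in irradiated cells, against 10.75, 10.57 and 10.44 in control cells. Its log2 difference of 0.10 (95% interval -0.12 to 0.33) was above 0 in all 3 experiments, yet smaller than the range of the 3 controls, 0.31. Itgav, the alpha v subunit of vitronectin receptors, read 10.63, 10.60 and 10.33 in irradiated cells and 10.70, 10.58 and 10.68 in control cells, with 1 irradiated array, that of experiment 3, below the rest. The log2 difference of Itgav was -0.13 (95% interval -0.40 to 0.13), and -0.03 without experiment 3. A second Itgav probe set, with means of 6.38 in irradiated and 6.83 in control cells, differed by -0.45 ± 0.18 (SE; limma unadjusted p = 0.0446), again with experiment 3 apart. Itgb5, another partner of alpha v, read 10.67, 10.46 and 10.64 in irradiated cells and 10.69, 10.34 and 10.55 in control cells. Its 4 probe sets gave differences of 0.04 to 0.10, close to each other.

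The remaining RGD-binding subunits were dim or noisy. Itga5, the classic fibronectin receptor subunit, read 5.94, 5.74 and 6.78 in irradiated cells and 5.78, 6.06 and 5.51 in control cells. The difference of 0.37 ± 0.28 (SE) rested on experiment 3, and it was -0.08 without that experiment. The next brightest Itga5 probe set, at means of 5.59 in irradiated and 5.47 in control cells, differed by 0.13 ± 0.11 (SE). Itgb3, which pairs with alpha v and with the platelet subunit, differed by 0.22 at a dim level, higher in all 3 experiments (limma unadjusted p = 0.0909, adjusted p = 0.657). A second dim Itgb3 probe set differed by 0.07 ± 0.17 (SE), with -0.41, 0.12 and 0.49 in the 3 pairs. Itgb6, an activator of TGF-beta in epithelia, had group means under 3.

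No collagen receptor subunit reached an unadjusted p under 0.05 by its brightest probe set in the blocked fit. Itga1, which forms the receptor for basement membrane collagen with beta 1, read 7.37, 7.01 and 6.74 in irradiated cells, against 7.46, 7.07 and 7.10 in control cells. All 3 pairs were lower, by 0.09, 0.06 and 0.36, and the log2 difference was -0.17 (95% interval -0.43 to 0.09). Itga10, a cartilage collagen receptor, was dim, with steps of -0.20, -0.20 and -0.23 from experiment 1 to 3 and a log2 difference of -0.21 ± 0.09 (SE; limma unadjusted p = 0.0613, adjusted p = 0.63). Itga2 was dim as well, with a difference of -0.02. Itga11, the main collagen receptor subunit of fibroblasts, was not analysed here. Itga9, which binds tenascin and VCAM-1, read 6.78, 7.16 and 7.30 in irradiated cells and 7.05, 6.95 and 7.50 in control cells, with differences of both signs. For Itga4, the other VCAM-1 receptor, 5 dim probe sets gave 1 difference above 0 and 4 below it, from -0.40 to 0.17, so no direction is given.

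No leukocyte integrin reached an unadjusted p under 0.05 in the blocked fit, while the dim Itgax and Itgb7 did so under some alternatives. Itgb2, the beta 2 subunit common to the leukocyte adhesion receptors, read 9.97, 10.70 and 10.70 in irradiated cells, against 10.12, 10.33 and 10.73 in control cells. The difference of 0.06 (95% interval -0.24 to 0.37) joined 1 higher and 2 lower pairs. Itgam, the alpha M chain of complement receptor 3 on macrophages, read 7.01, 7.46 and 6.64 in irradiated cells and 6.87, 7.36 and 7.11 in control cells. Its difference was -0.08 (95% interval -0.42 to 0.27), and 0.12 without experiment 3. Itgal, the alpha L chain of the receptor for ICAM-1, read 7.44, 7.46 and 7.33 in irradiated cells and 7.67, 7.48 and 7.47 in control cells. These groups did not overlap, the single such case among the brightest probe sets of the 34 genes (2.94%). Of all genes 9.96% had groups without overlap, 5.4% with irradiated cells lower. Dimmer probe sets of Itgav, Itga4 and Itgae also had groups without overlap, with irradiated cells lower. The Itgal log2 difference was -0.13 ± 0.10 (SE; limma unadjusted p = 0.232, adjusted p = 0.759), and 0.02 in size in experiment 2. Its other probe set, near 4, differed by 0.01.

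Itgax, the alpha X chain of dendritic cells and some macrophages, was dim, at 4.44, 4.18 and 4.28 in irradiated cells, against 4.66, 4.27 and 4.81 in control cells. It was lower in each pair, by a mean log2 difference of -0.28 ± 0.12 (SE; limma unadjusted p = 0.0515, adjusted p = 0.619). Itgb7, the beta chain of gut-homing lymphocytes, differed the other way, by 0.22 ± 0.10 (SE), at means of 5.95 in irradiated and 5.73 in control cells. Itgae, its alpha partner, was near 4 and differed by -0.01. A dimmer Itgae probe set, at means of 3.61 in irradiated and 3.83 in control cells, was lower in each pair, by -0.22 ± 0.10 (SE). Itga2b, the alpha chain of the platelet fibrinogen receptor, read 6.76, 6.81 and 6.81 in irradiated cells and 6.71, 6.89 and 6.85 in control cells, where its partner Itgb3 was dim. Itgad, the remaining beta 2 partner, was not analysed here.

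Stromal and leukocyte integrins were set side by side by their log2 differences. The median was 0.02 over 16 stromal subunits and -0.04 over 6 leukocyte subunits, where all genes had 0.01. By experiment the stromal medians were 0.03, 0.07 and 0.07, and the leukocyte medians were -0.11, 0.08 and -0.09. Of the stromal subunits 6 were higher in all 3 experiments (37.5%) and 2 lower (12.5%). Of the leukocyte subunits 1 was higher (16.7%) and 2 were lower (33.3%). Over all 34 genes 7 were higher in all 3 experiments (20.6%) and 5 lower (14.7%), against 15.7% and 15.1% of all genes. The leukocyte medians of the 3 experiments had an SD of 0.10. Without experiment 3 both medians were 0.05, so the classes did not differ there, and without experiment 2 the leukocyte median was -0.13. At the level of 6 the stromal median was 0.08 over 8 subunits and the leukocyte median -0.08 over 3. Of the leukocyte and macrophage markers, 12 of 13 had a difference below 0, with a median of -0.10. Over all genes, 8721 of 18193 lay below 0. Lower in all 3 experiments were 5 of the 13 (38.5%), against 15.1% of all genes and 18.7% of genes at the level of 6. An unadjusted p under 0.05 was reached by 1 of 13 (7.69%), against 8.31% of all genes. For genes at the level of 6, which all 13 markers reached, that last share was 10.8%. The mean of the 13 ranged over 11.06 to 11.69 on irradiated arrays and 11.32 to 11.90 on control arrays. Their part in the leukocyte integrin values was not tested.

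**Figure D3:**
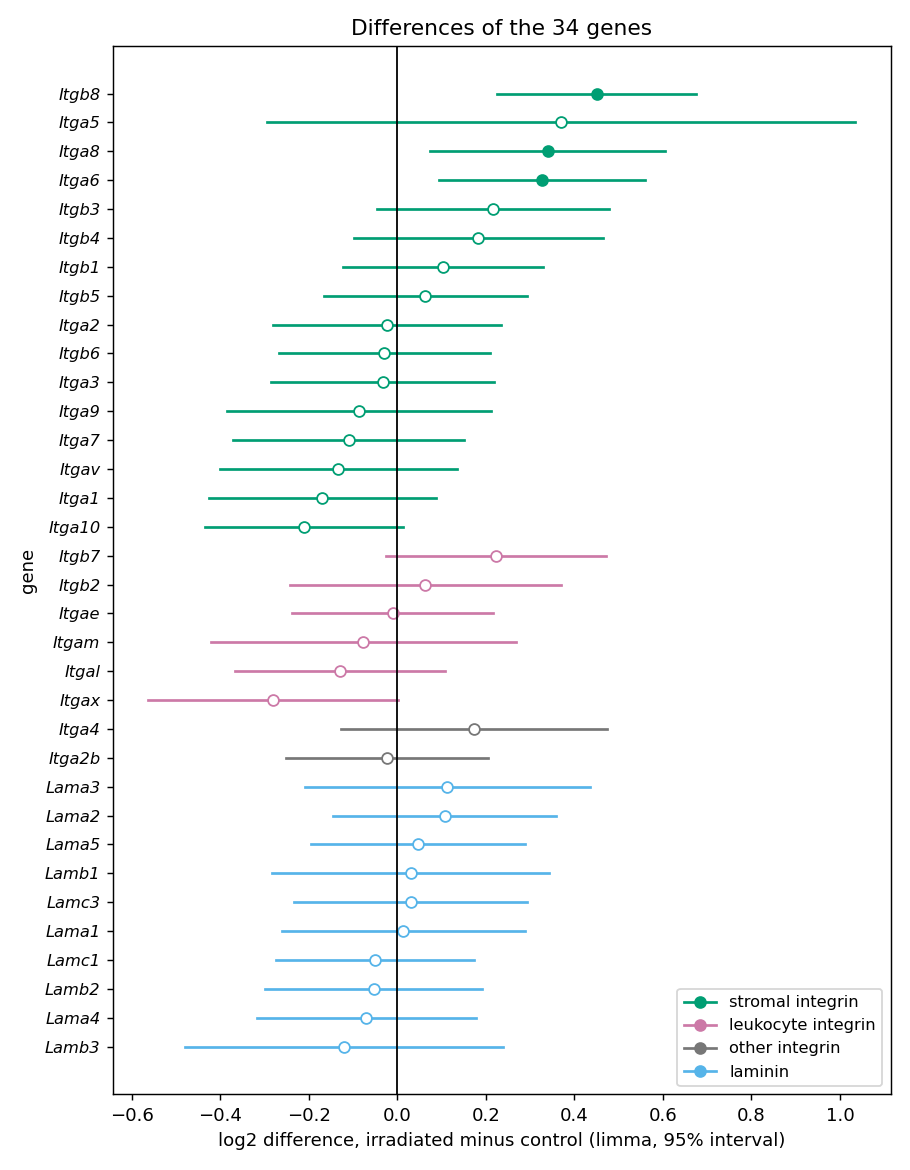
Log2 differences, irradiated minus control, of the 34 genes with 95% intervals from limma; filled points have an unadjusted p under 0.05. The 3 filled points, Itgb8, Itga8 and Itga6, lie at 0.33 to 0.45, and the 10 laminins lie between -0.12 and 0.11.

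Laminin chains spanned differences of -0.12 to 0.11, a narrower range than the stromal or the leukocyte integrins. Lamb1 and Lamc1, the beta and gamma chains of the laminins of fat cells, muscle and vessels, were both above the level of 6. Lamb1 read 11.48, 11.19 and 10.84 in irradiated cells and 11.27, 11.01 and 11.14 in control cells, with experiment 3 opposite to the others. Lamc1 read 7.60, 7.42 and 7.56 in irradiated cells, against 7.65, 7.45 and 7.63 in control cells, a difference of -0.05 (95% interval -0.27 to 0.17). Among alpha chains Lama4, typical of fat cells and vessels, read 8.42, 8.47 and 8.25 in irradiated cells and 8.58, 8.38 and 8.39 in control cells. That is a difference of -0.07 (95% interval -0.32 to 0.18), with both signs among the pairs. Lamb2, a beta chain of muscle and nerve laminins, read 7.62, 6.99 and 6.90 in irradiated cells and 7.70, 6.90 and 7.07 in control cells, so its experiments lay farther apart than its groups.

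Lama3, an alpha chain known from the epidermis, read 6.46, 7.28 and 7.43 in irradiated cells and 6.27, 6.91 and 7.65 in control cells. Its control range of 1.38 was the widest among the 34 genes, and its difference was 0.11 (95% interval -0.21 to 0.43). Lama3 pairs in skin with Lamb3 and a gamma 2 chain, and Lamb3 lay near 4. The gamma 2 gene was not analysed here. Lama2, the alpha chain of muscle laminin, and Lama5, the alpha chain of most adult basement membranes, lay between 5.4 and 5.6 as group means, and Lama1, the embryonic chain, and Lamc3 between 3.7 and 4.0. The laminin median was 0.02, with -0.05, 0.09 and -0.12 in the 3 experiments. None of the 10 chains reached an unadjusted p under 0.05 over the 3 experiments, and 1, Lamc1, was lower in all of them. Lamb3, at -0.12, reached it at -0.33 when experiment 2 was left out.

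For 33 of 34 genes (97.1%) the mean difference was smaller than the range of the 3 control arrays, against 83.8% of all genes. Itga10 and Itgb8 differed by a like amount in each pair even so, and Itga6 by 0.42, 0.31 and 0.25. Lamc1 also differed by a like but small amount, at -0.05, -0.03 and -0.07. The values of Itga5 and Itgam were set mostly by experiment 3. Over all 73 probe sets 5 reached an unadjusted p under 0.05 (6.85%), where 8.06% of all probe sets did. They were 1 each of Itgb8, Itga8 and Itga6, which were higher, and of Itgav and Itga4, which were lower. Of 20 genes with several probe sets, 10 had every probe set on the same side of 0.

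**Figure D4:**
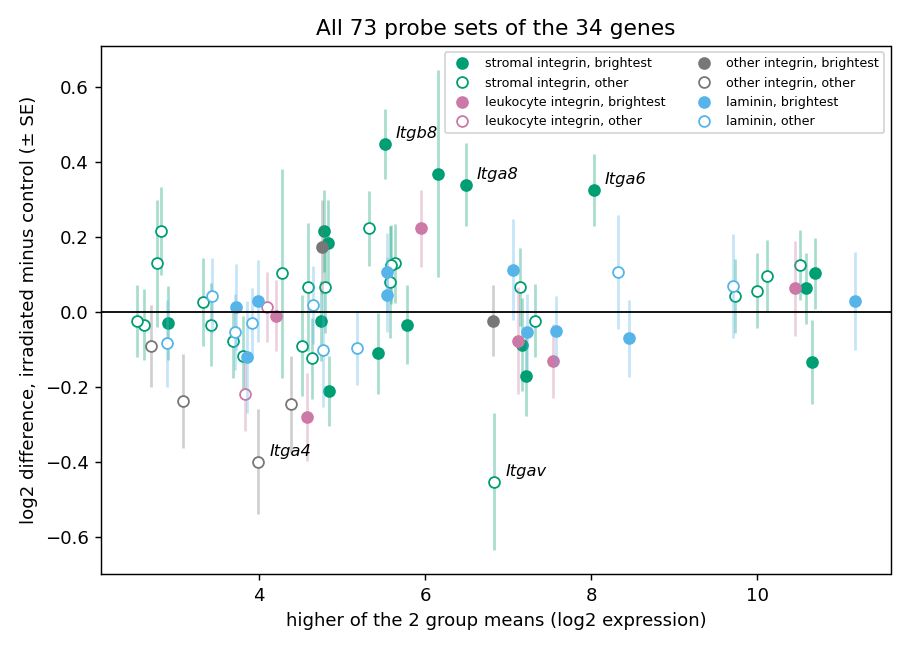
Log2 difference, irradiated minus control (y axis, bars are SE), against the higher group mean (x axis) for the 73 probe sets of the 34 genes; filled points are the brightest probe set of a gene, and names mark an unadjusted p under 0.05. Named points are higher for Itgb8, Itga8 and Itga6 and lower for Itgav and Itga4, where the point named is not the brightest probe set of its gene.

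Genes around the integrins gave no call over all probe sets either. Of 33 measured genes of the adhesion machinery inside the cell, 1 was higher and 3 were lower at an unadjusted p under 0.05, with a median of 0.01. That is 12.1% of the list, against 8.31% of all genes. Among genes at the level of 6, which all 33 reached, the share was 10.8%. Ptk2b, a focal adhesion kinase relative frequent in leukocytes, read 7.64, 7.98 and 8.16 in irradiated cells and 8.20, 8.36 and 8.40 in control cells. Its groups did not overlap, and the log2 difference was -0.39 ± 0.11 (SE; limma unadjusted p = 0.00859, adjusted p = 0.538). Vasp, an actin polymerisation factor at adhesions, differed by -0.33 ± 0.11 (SE), the kinase gene Src by -0.29 ± 0.11 (SE) and Kank2, which binds talin, by 0.30 ± 0.09 (SE).

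Among 23 measured integrin ligands, 3 were higher and 2 were lower at that p (21.7%, against 8.31% of all genes), with a median of 0.01. Of the 23, 15 reached the level of 6, where the share over all genes was 10.8%. The list was chosen with earlier results of these data known and holds Ccn2, with the highest difference of all 18193 genes. The share of the list is therefore no test of the ligands. Vcam1, the ligand of alpha 4 and alpha 9 integrins, read 10.08, 10.21 and 10.00 in irradiated cells, against 9.50, 9.50 and 9.82 in control cells, with no overlap. Ccn2, a matricellular ligand of alpha v integrins, had a difference of 1.06 ± 0.33 (SE), with 12.78, 11.64 and 12.50 in irradiated cells and 12.14, 11.29 and 10.31 in control cells, where the control of experiment 3 lay lowest. Thbs2, a thrombospondin, differed by 0.27 and Ibsp, a bone sialoprotein with an RGD site, by -0.34. Vwf, the von Willebrand factor gene, was dim and differed by -0.51. Fn1, the fibronectin gene, differed by 0.11 ± 0.10 (SE).

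The list around latent TGF-beta, which alpha v integrins can activate in some forms, held 7 measured genes, Tgfb1 to Tgfb3 and Ltbp1 to Ltbp4. At an unadjusted p under 0.05, 1 was higher and 1 lower (28.6%, against 8.31% of all genes and 10.8% at the level of 6). The level was reached by 6 of the 7, and this list too was chosen with earlier results known. Tgfb2, whose latent form lacks the RGD site, read 8.23, 8.07 and 7.91 in irradiated cells and 8.00, 7.54 and 7.38 in control cells, a difference of 0.43 ± 0.11 (SE; limma unadjusted p = 0.00616, adjusted p = 0.538). Tgfb1, whose latent form carries that site, read 5.91, 6.76 and 7.28 in irradiated cells and 6.35, 6.77 and 7.71 in control cells, a difference of -0.29 ± 0.12 (SE; limma unadjusted p = 0.0491, adjusted p = 0.619). Of 21 basement membrane partners and laminin receptors 1 passed that p (4.76%, against 8.31% of all genes). It was Lamtor1, at 0.29 ± 0.10 (SE), a late endosome adaptor that is no basement membrane gene. In all 3 experiments 6 of the 21 were higher (28.6%) and 2 lower (9.52%), against 15.7% and 15.1% of all genes. Nid1, which links laminin to collagen IV, differed by 0.08 and Dag1, the dystroglycan receptor for laminin, by -0.13. None of 7 tetraspanins reached an unadjusted p under 0.05 (0%), where 8.31% of all genes did.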

How the data were processed

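Biotin-labelled RNA from 200 ng of total RNA was hybridised to Affymetrix mouse arrays, per the labels' protocols. What the authors deposited is a log2 value for each probe set, from RMA and affy, with limma also listed, per the submitters' processing notes. Versions, and which arrays were normalized together, are not stated there.

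The 64 array controls were left out, which left 45037 probe sets, 34945 with 1 symbol, 932 with several and 9160 unnamed here. A gene was its brightest probe set over the 6 arrays. All 34 member symbols matched GRCm38.p6 through their gene identifiers. The comparison used limma 3.58.1 under R 4.3.3 (lmFit and eBayes, two-sided tests) with a block for the experiment, and p was adjusted by Benjamini-Hochberg across all probe sets, at 0.05. The design text states the pairing. Deviations of the pairs from the group means correlated at 0.787, 0.028 and 0.324 across genes at the level of 6. The irradiated array of experiment 2 correlated best with the control array of experiment 3, not with its own. Residual degrees of freedom were 2, prior ones 4.52, and the fit was tested on simulated data. Members and lists were chosen with earlier results of these data known. Values on each array are given for members at a mean of 6 or an unadjusted p under 0.05, and for Itgax. From each list up to 4 genes past both are named, some by their difference alone. Other list genes were named after their values were seen. Alternatives were the block, each experiment left out, normalization, a filter on dim probe sets, the variance prior, array weights, the probe set of a gene and the level. Figures used matplotlib 3.10.9.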

Additional observations from a re-analysis of the deposited data

How the results depend on the processing

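Itgb8, Itga8 and Itga6 stayed higher in irradiated cells under every alternative run for each of them (10, 11 and 11), with log2 differences of 0.44 to 0.46, 0.18 to 0.45 and 0.20 to 0.37, and had an unadjusted limma p under 0.05 in 9, 6 and 7 of them. Without the replicate block, 0 members reached that p, with Itga6 at an unadjusted limma p of 0.0674 and Itga8 at 0.223, and 2168 probe sets did, against 3631 with it. With experiments left out in turn, 1 to 3 members and 1692 to 3748 probe sets reached it, the lowest without experiment 1 in both cases, and the stromal integrin median was 0.0025 to 0.0525. That median was 0.0833 with dim probe sets left out, when 2260 of 16431 probe sets reached the unadjusted p, and 0.0792 with the mean of a gene's probe sets. With the experiment as a random replicate block 2 probe sets passed adjustment, those of Gem and Rhpn2, neither an integrin nor a laminin. With the mean of a gene's probe sets Itga6 differed by 0.20 and Itga8 by 0.18. Genes that reached an unadjusted limma p under 0.05 only under an alternative were Lamb3 (-0.33 without experiment 2), Itgax (under 3 alternatives), Itgb7 (under 2) and Itga10 (with the mean of a gene's probe sets in the fit). Of the 34 genes 17 changed sign under at least 1 alternative, none of them past the unadjusted threshold with all 3 experiments in the blocked fit. The leukocyte integrin median was -0.1275 to 0.0525 with experiments left out in turn and 0.0018 with array weights. The level of 6 was reached by 17 members, a level of 5 by 23 and a level of 7 by 14. Dim signal limits what can be said of the 17 members below 6.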
